A study of Mus musculus with 2 samples.

Results

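The genes described are 8 genes of heme synthesis enzymes, Alas1, Alas2, Alad, Uros, Urod, Cpox, Ppox and Fech, and Hmox1, which encodes the inducible enzyme of heme breakdown. They were listed by symbol as genes of the pathway and make up 9 of 55348 gene entries. The enzyme that acts between the products of Alad and Uros is not reported here. RNA-seq counts came from E13.5 embryonic hearts of 129sv mice. There was 1 library of the wild type and 1 of Lmna H222P/H222P, in which both copies of the gene of lamins A and C carry the H222P missense allele. The labels did not give the number or sex of the hearts in a library, and named no further treatment. The study concerned the histone demethylase LSD1 in this model of laminopathy. With 1 library per genotype there was no replicate, no test was possible and no p-value is given. All intervals are 95% intervals that cover counting error only: the labels name no molecular identifiers, so copies made in amplification can count again.

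The wild-type count table held 32669225 reads on genes and that of H222P held 25120790. Levels are CPM, reads per 1000000 reads on genes, scaled between the libraries by TMM. All 16 cardiomyocyte markers examined for the heart label had reads in both libraries, with a summed level of 37894 CPM in wild type and 20019 CPM in H222P. The H222P library also held transcripts typical of other tissues, and the labels do not say whether liver, which makes red cells in the fetus, was present in that preparation. The 18 hepatocyte markers summed to 35.9 CPM in wild type, where Fabp1 had 0 reads, and 6406 CPM in H222P. The 18 red cell precursor markers with a row, none of them at 0 in either library, summed to 484 and 3234 CPM, and 10 globin genes to 11773 and 17525 CPM. The part of these other cells in the values below was not tested. In bulk tissue, fewer cells of a type and less RNA per cell cannot be told apart.

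Heme is an iron-containing ring built from glycine and succinyl-CoA by a chain of enzymes that begins and ends in mitochondria, with the middle steps in the cytosol. The first step, made by 5-aminolevulinate synthase, sets the pace and exists in 2 forms: Alas1 is the housekeeping gene, repressed by heme itself, and Alas2 is the red cell gene, whose messenger is held back from translation when iron is short. Most heme of the embryo goes into hemoglobin, whereas the cardiomyocyte needs heme for myoglobin and for the cytochromes of the respiratory chain.

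The iron control of Alas2 rests on an iron-responsive element, a short hairpin in the leader of its messenger that iron regulatory proteins bind. A search for an unpaired C, a stem of 5 pairs and a loop of CAGTGN whose last base was not G found such a hairpin in the 5′ UTR of 23 of 20580 genes (0.112%). Alas2 was the only one of the 9 members among them, and the set also held the ferritin genes Fth1 and Ftl1 and the iron exporter Slc40a1. The Alas2 hairpin lies in exon 1, in the 5′ UTR, at chrX:150547464-150547480 on the plus strand (GRCm38). It is shown with its flanks and with the loop in capitals, because the counts below measure the messenger and not its translation.
Alas2 hairpin: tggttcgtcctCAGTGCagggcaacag

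Promoter windows of 300 bases, 250 before and 50 after the start in RefSeq (GRCm38.p6), were matched for 7 of the 9 members and were not matched for Fech and Hmox1. They were searched on both strands for AGATAA and TGATAA, and also for AGATAG or TGATAG, letters that GATA factors such as the red cell regulator GATA1 bind. Alas2, Cpox and Uros had a match, 3 of 7 genes, against 33% of 27025 genes with a window. All 7 had a match to CCNCNCCC, a pattern of KLF1 that also fits the GC boxes of many promoters and was found in 51.9% of genes. The 10-base motif of the respiratory gene regulator NRF1 was present in windows of Alas1 and Uros, against 5.19% of genes. A match describes letters and is neither a bound site nor a cause.
The stretches below lie before the start and outside exons of the gene, with GATA letters in capitals. They show the windows of Alas2, of the 2 reported enzymes whose ratios were highest, and of Urod, which had no GATA match. Alas2 is on the plus strand at chrX:150547167-150547374 and Cpox on the plus strand at chr16:58669958-58670207. The Uros stretch, on the minus strand at chr7:133702617-133702750, precedes a second start inside the gene, and the window of its first start held no GATA match. Urod is on the minus strand at chr4:116994414-116994663.
Alas2: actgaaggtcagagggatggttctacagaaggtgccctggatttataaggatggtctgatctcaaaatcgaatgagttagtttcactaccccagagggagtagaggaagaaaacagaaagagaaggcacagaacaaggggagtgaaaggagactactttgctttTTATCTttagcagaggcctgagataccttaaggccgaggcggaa
Cpox: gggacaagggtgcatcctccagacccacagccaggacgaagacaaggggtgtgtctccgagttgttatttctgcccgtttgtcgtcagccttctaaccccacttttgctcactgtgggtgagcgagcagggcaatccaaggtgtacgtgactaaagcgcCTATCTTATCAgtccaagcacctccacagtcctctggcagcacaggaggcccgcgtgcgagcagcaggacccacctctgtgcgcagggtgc
Uros, inner start: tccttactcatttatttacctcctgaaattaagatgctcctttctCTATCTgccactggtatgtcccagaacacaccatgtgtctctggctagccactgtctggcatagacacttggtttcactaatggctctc
Urod: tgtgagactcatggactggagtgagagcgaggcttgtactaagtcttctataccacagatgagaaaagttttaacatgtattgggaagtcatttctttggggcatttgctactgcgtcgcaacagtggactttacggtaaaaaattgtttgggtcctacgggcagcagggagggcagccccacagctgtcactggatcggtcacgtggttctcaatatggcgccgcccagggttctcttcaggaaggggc

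The reported enzymes from Alad onward were higher in the H222P library, and the first step of the pathway was split. Cpox, Uros, Urod, Alad, Ppox and Fech were between 4.92-fold and 1.85-fold higher, Alas2 was 1.48-fold higher, Hmox1 was 1.14-fold higher and Alas1 was 1.46-fold lower. Thus 6 of 9 members were at least 1.5-fold higher, against 10.9% of the 14716 genes whose mean level was 1 CPM or more (called measured below), and 0 of 9 were at least 1.5-fold lower, against 11.4%. For the 6 higher members the whole interval lay beyond 1.5-fold. The median log2 ratio (H222P over wild type) was 1.08 over the members and −0.01 over all measured genes. Among the measured genes, 2.34% had a higher ratio than Cpox and 11.3% a higher ratio than Alas2. Red cell precursor markers were higher in the same library by a median log2 ratio of 3.51, and their part in these ratios was not tested.

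**Figure D1:**
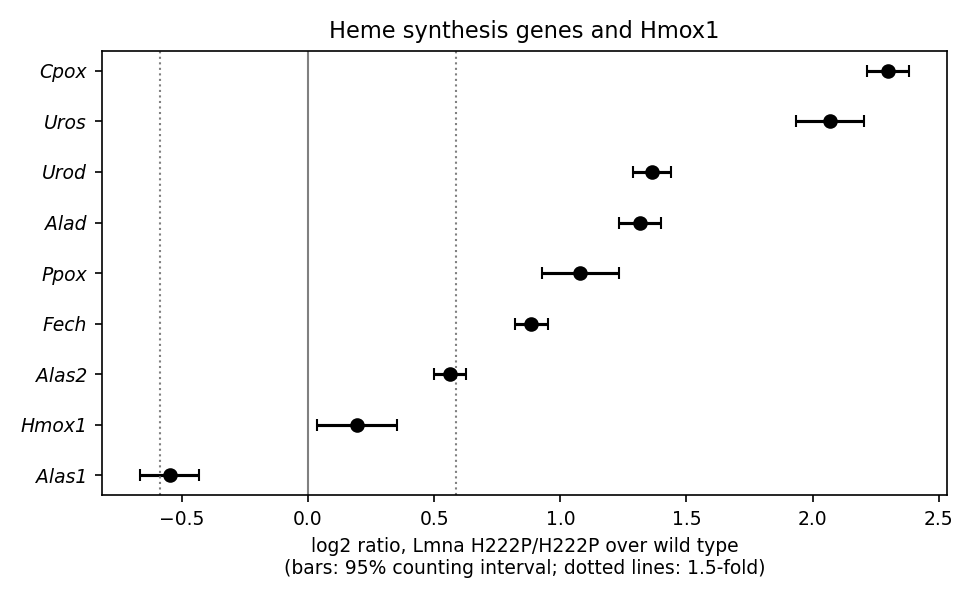
Log2 of the H222P level over the wild-type level for the members, each with its 95% counting interval; dotted lines mark 1.5-fold. Cpox stands highest at 2.30 and Alas1 lowest at −0.55, and the intervals of Alas2 and Alas1 cross the 1.5-fold lines.

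**Figure D2:**
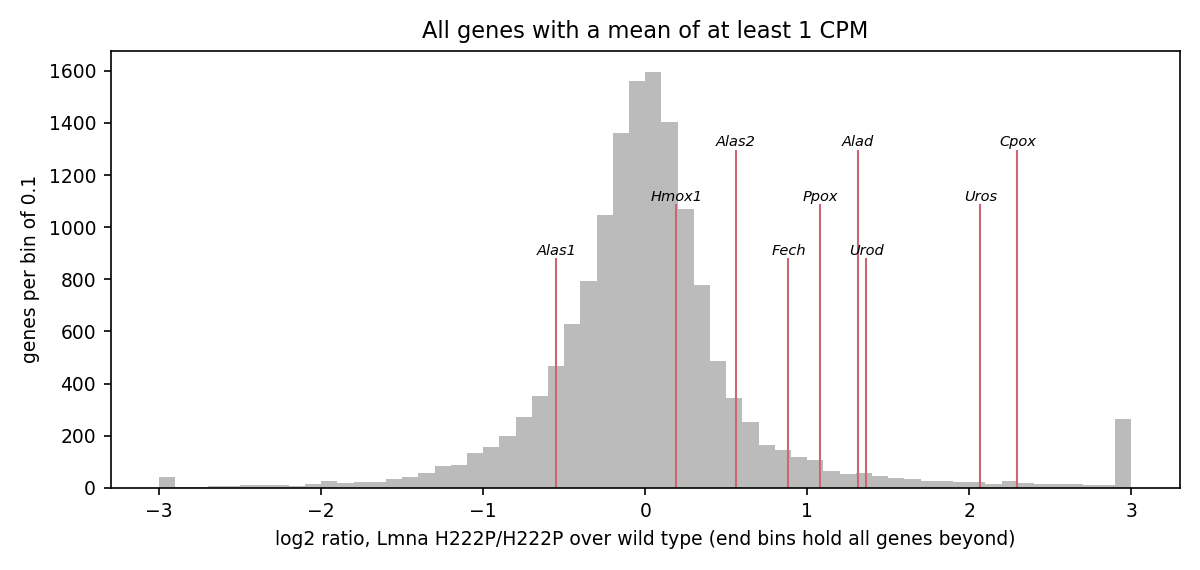
Number of genes per bin of 0.1 in log2 ratio among measured genes (grey), with the members as red lines whose heights carry no value. Hmox1 lies nearest the centre, above 0, Alas1 on the lower side and the other members on the upper side.

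At the first step the forms of the synthase differed in opposite directions. Alas1 (chromosome 9, 106233455 to 106248654) had 1629 reads (52.6 CPM) in wild type and 952 (35.9 CPM) in H222P, 1.46-fold lower (1.35 to 1.59). Alas2 (chromosome X, 150547375 to 150570638) had 3569 reads (115 CPM) and 4503 (170 CPM), 1.48-fold higher (1.41 to 1.54). Alas2 therefore made up 68.7% of the reads on both genes in wild type (exact Clopper-Pearson interval 67.4 to 69.9) and 82.5% in H222P (81.5 to 83.5). Per kb of exon, the level of Alas2 was 5.63 times that of Alas1 in wild type and 12.2 times in H222P, and per kb of the longest transcript 3.66 and 7.89 times. The red cell form was thus the more abundant in both libraries, and its excess was larger in H222P by a factor of 2.16 (1.97 to 2.37).

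Within the Alas2 gene, 311 exon bases are shared with Apex2 on the opposite strand. With both strands counted together, Alas2 had 3040 and 3776 reads, and its shares were 65.1% and 79.9%. The part of the overlap in that difference was not tested.

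The cytosolic enzymes Alad, Uros and Urod had higher levels in H222P. Alad, which joins 2 molecules of aminolevulinate into the first ring (chromosome 4, 62509169 to 62519918), had 1739 reads (56.1 CPM) in wild type and 3700 (140 CPM) in H222P, 2.49-fold higher (2.35 to 2.64). Uros, which closes the large ring (chromosome 7, 133686243 to 133710072), had 577 reads (18.6 CPM) and 2070 (78.2 CPM), 4.19-fold higher (3.83 to 4.61). Urod, which removes carboxyl groups from that ring (chromosome 4, 116989965 to 116994413), had 2056 reads (66.4 CPM) and 4525 (171 CPM), 2.57-fold higher (2.44 to 2.71). Alad and Urod thus had overlapping intervals, and Uros stood above both. Its counts rest on the gene as a whole, so the contribution of either start of Uros was not separated.

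The last steps return to the mitochondrion. Cpox, coproporphyrinogen oxidase (chromosome 16, 58670292 to 58717636), had 1444 reads (46.6 CPM) in wild type and 6070 (229 CPM) in H222P, 4.92-fold higher (4.64 to 5.21). Ppox, protoporphyrinogen oxidase (chromosome 1, 171275990 to 171281186), had 547 reads (17.7 CPM) and 988 (37.3 CPM), 2.11-fold higher (1.90 to 2.35). Fech, ferrochelatase, which inserts the iron (chromosome 18, 64452914 to 64490251), had 3153 reads (102 CPM) and 4976 (188 CPM), 1.85-fold higher (1.77 to 1.93). Cpox thus had the highest ratio of the 9 members, with an interval above that of Uros, and Fech the lowest of these 3. Ppox shares 791 exon bases with B4galt3 on the opposite strand, and 38.5% of wild-type and 22.8% of H222P reads over Ppox came from that strand and were not counted for it. Exons of Cpox and Fech hold stretches matched in transcripts of 436 and 206 other genes (at least 90% identity over at least 100 bases). Reads that map to several places were not counted for either gene.

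Hmox1 degrades heme to biliverdin, iron and carbon monoxide and is induced by heme and by oxidative stress (chromosome 8, 75093621 to 75100589). It had 658 reads (21.2 CPM) in wild type and 643 (24.3 CPM) in H222P, a ratio of 1.14-fold (1.02 to 1.28), and 29.3% of measured genes had a higher ratio. Hmox1 thus lay on the upper side of the transcriptome, but nearer its middle than the reported synthesis enzymes below the first step. Macrophages, which clear old red cells, are a known source of Hmox1. Of 14 measured macrophage markers 2 were at least 1.5-fold higher and 1 was lower, beside 10.9% and 11.4% of all measured genes. The median log2 ratio of these markers was −0.04, or 0.11 with total-count scaling. The summed level of the 16 markers was 147 CPM in wild type, and 131 CPM in H222P. Spic and Cd163 lay below a mean of 1 CPM and are not among the measured markers. Spic, a factor of the macrophages that recycle heme iron, had 0 reads in wild type and 43 in H222P (1.62 CPM). Cd163 went the other way, with 4 reads in wild type and 1 in H222P. The measured markers past the higher bound were Ptprc, the pan-leukocyte gene, at 3.58 and 6.98 CPM, and Cd5l at 0.226 and 3.17 CPM. C1qa was the lower one at 7.87 and 5.17 CPM.

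**Figure D3:**
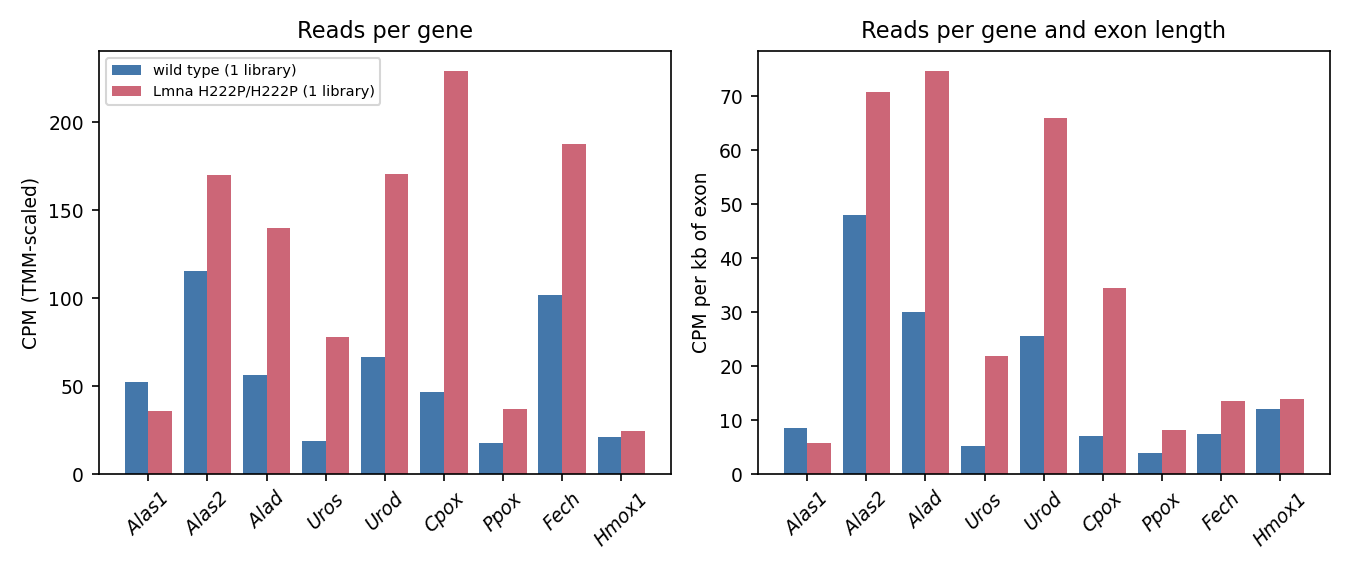
Level of each gene in the 2 libraries, as CPM (left) and as CPM per kb of exon (right), in the order of the pathway with Hmox1 last; each bar is 1 library and there are no error bars. Alas2, Alad and Urod are the 3 highest per kb in both libraries, and Alas1 is the only gene whose H222P bar is the shorter.

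Per kb of exon, the order of levels differed between the libraries. In wild type Alas2 led at 47.9 CPM per kb, followed by Alad at 30.0, Urod at 25.6 and Hmox1 at 12.1. Alas1 at 8.52, Fech at 7.35, Cpox at 7.0, Uros at 5.21 and Ppox at 3.91 came after. In H222P Alad at 74.7, Alas2 at 70.7 and Urod at 65.9 CPM per kb led, Cpox at 34.4 and Uros at 21.9 followed, and Alas1 at 5.82 was last. Cpox thus held rank 7 in wild type and rank 4 in H222P, and Alas1 rank 5 and rank 9. The order depends on the gene model. With the longest transcript as length, Urod led in H222P at 115 CPM per kb, ahead of Alas2 at 83.5 and Alad at 79.0, and Alas2 still led in wild type at 56.5. Cpox then held rank 6 and rank 4, and Alas1 rank 5 and rank 8, above Ppox. With 1 library per genotype, neighbours in this order have no measured spread.

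Ratios within a library do not depend on the scaling between libraries. For every 100 Alas2 reads there were 40.5 Cpox reads in wild type and 135 in H222P, 3.33 times as many (3.10 to 3.58). Uros had 16.2 and 46.0 per 100 Alas2 reads, or 2.84 times as many (2.56 to 3.15), and Fech 88.3 and 111, or 1.25 times (1.17 to 1.33). Each of the 6 reported enzymes from Alad onward was thus higher relative to Alas2, by 1.25 to 3.33 times. Hmox1 was lower relative to Alas2, at 0.775 times (0.688 to 0.872).

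Set against the summed globin reads, Alas2 had nearly equal values. Hbb-y alone held 200407 of the 364769 wild-type and 206229 of the 464161 H222P globin reads. Reads that map to several places were not counted for globins either. Hba-a1 had 50002 and 34142 counted reads, and Hba-a2 had 2223 and 1598. The part of uncounted reads in the globin sum was not tested. The measured globins had log2 ratios from −0.32 to 3.36 (median 0.96), beside 0.56 for Alas2. There were 9.78 Alas2 reads per 1000 globin reads in wild type and 9.70 in H222P, a ratio of 0.992 (0.949 to 1.04), whereas Cpox had 3.96 and 13.1 per 1000. Set against the 18 red cell precursor markers, every member was lower in H222P. Tfrc alone held 6937 of the 15001 wild-type and 28052 of the 85660 H222P marker reads, and the sum without it was not examined. Alas2 had 238 and 52.6 reads per 1000 marker reads, 4.53 times lower (4.32 to 4.74). Cpox, the nearest to the marker sum, had 96.3 and 70.9, 1.36 times lower (1.28 to 1.44). Set against 15 genes of the respiratory chain and citrate synthase, Alas1 had 5.79 reads per 1000 in wild type and 5.40 in H222P, a ratio of 0.932 (0.860 to 1.01). The reported enzymes from Alad onward thus lay between the globin sum and the precursor marker sum, and Alas2 lay at the globin sum. Alas1 lay near the respiratory chain sum, with an interval that holds 1. These are reads of mixed tissue, and no cell type was separated.

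**Figure D4:**
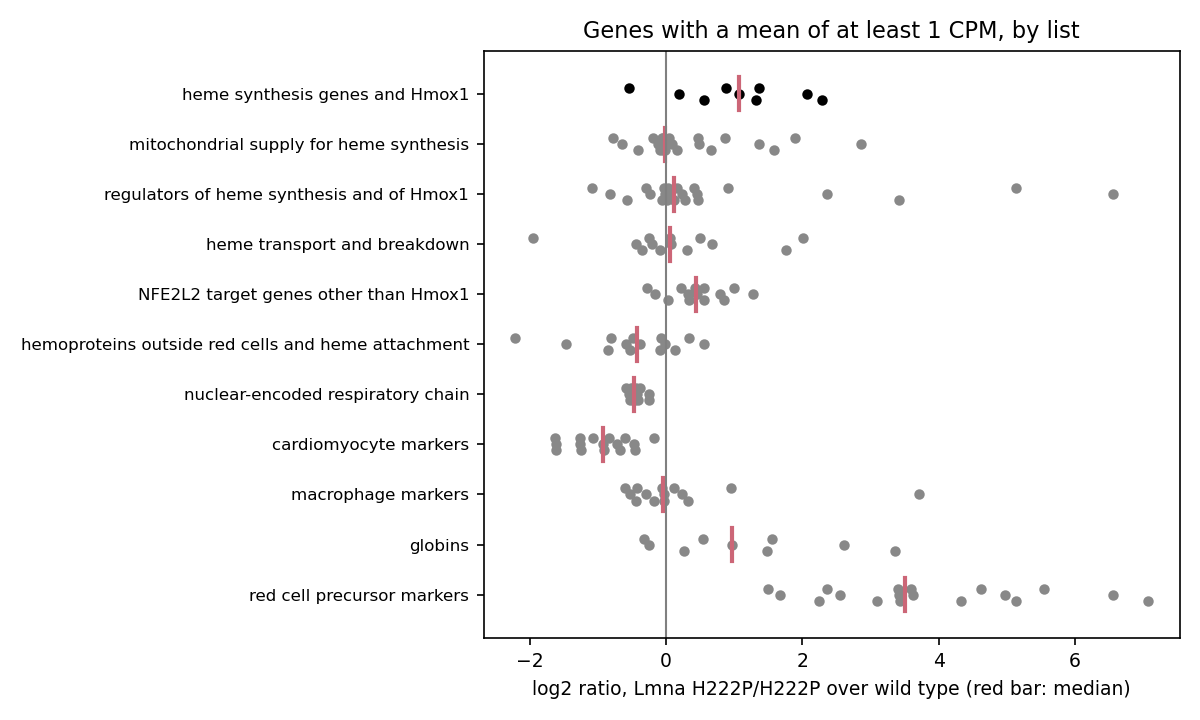
Log2 of the H222P level over the wild-type level for the measured genes of the members and in 10 companion lists; points are genes, offset vertically for display, and red bars are medians. By median, the members (1.08) lie just above globins (0.96) and below red cell precursor markers (3.51). Respiratory chain genes lie at −0.47 and cardiomyocyte markers lowest at −0.92, and single genes of the lists overlap. Hepatocyte markers (median 8.23) are not drawn.

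Among the markers of other cells, all 18 red cell precursor genes were at least 1.5-fold higher, from the spectrin gene Sptb (2.82-fold) to Hemgn (log2 ratio 7.08). The erythroid anion exchanger Slc4a1 had 1967 and 14375 reads, 8.55-fold higher (8.16 to 8.97). Of 9 measured globin genes 5 were at least 1.5-fold higher and 0 lower (median 0.96). The embryonic chain Hbb-bh1 was 10.3-fold higher (9.97 to 10.6), whereas the most abundant, Hbb-y, was 1.20-fold higher and Hba-a1 1.25-fold lower. All 18 hepatocyte markers were at least 1.5-fold higher (median log2 ratio 8.23, or 7.88 with Fabp1 at the bound that 3 wild-type reads would give). Among 16 cardiomyocyte markers 13 were lower by 1.5-fold or more, 3 lay between and 0 were higher, with a median of −0.92. The part of any of these cells in the ratios of the members was not tested.

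Heme synthesis needs substrate, iron and iron-sulfur clusters inside the mitochondrion. In a list of 24 genes for that supply, 23 were measured. Of these, 6 were at least 1.5-fold higher and 2 lower, beside 10.9% and 11.4% of all measured genes, and 15 lay between. The median log2 ratio of the 23 was −0.01, and 0.14 with total-count scaling. The 6 higher genes included Slc25a37 (mitoferrin-1), the iron carrier of red cell precursors, with 1409 and 8801 reads, 7.30-fold higher (6.91 to 7.74). Slc25a38, which brings glycine into the mitochondrion, was 3.0-fold higher (2.63 to 3.43), and Abcb10, an inner-membrane transporter needed for hemoglobin formation, 2.57-fold higher (2.43 to 2.72). Tmem14c, which helps the porphyrin intermediate into the matrix, was 1.83-fold higher (1.73 to 1.92), and the others were Tspo2 at 3.73-fold and the cluster-assembly gene Glrx5 at 1.58-fold. Of the 15 genes between the bounds, the second mitoferrin, Slc25a28, was at 1.03-fold (0.895 to 1.19), the glycine-producing enzyme gene Shmt2 at 1.40-fold and the reductase gene Fdxr at 1.39-fold, and the cluster-assembly genes Iscu and Nfs1 had log2 ratios of −0.19 and 0.17. Sucla2 and Fdx1 were the 2 lower genes, 1.70-fold (1.64 to 1.77) and 1.56-fold (1.42 to 1.73).

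In the list of heme transport and breakdown, 3 of 13 measured genes were at least 1.5-fold higher and 1 was lower. Over all measured genes these shares were 10.9% and 11.4%. The other 9 lay between, and the median over the 13 was 0.06. The higher ones were Blvrb, a biliverdin reductase abundant in red cells, 4.05-fold (3.74 to 4.40), the heme-binding gene Hebp1, 3.38-fold (3.14 to 3.65), and the porphyrin exporter Abcg2, 1.60-fold (1.52 to 1.67). Hebp2 was 3.86-fold lower (2.99 to 5.11). The constitutive heme oxygenase Hmox2 had 71.8 CPM in wild type and 56.3 in H222P, and the heme exporter Flvcr1 11.7 and 16.5 CPM. The breakdown enzymes thus differed among themselves, with Hmox1 and Hmox2 on either side of a ratio of 1.

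Among 23 regulators of the pathway and of Hmox1, 5 were at least 1.5-fold higher, 2 lower and 16 between (median 0.12). Of all measured genes, 10.9% were higher and 11.4% lower by that bound. The red cell factors Gata1 and Klf1 had 40 and 20 reads in wild type and 1219 and 1657 in H222P, log2 ratios of 5.14 (4.70 to 5.65) and 6.56 (5.97 to 7.31). Tal1 and Nfe2, also red cell factors, were 5.13-fold and 10.7-fold higher, and Eif2ak1, the heme-regulated kinase that holds back globin translation when heme is short, was 1.89-fold higher (1.75 to 2.04). The 2 lower genes were Ppargc1a, a coactivator of mitochondrial genes and of Alas1, at 105 and 49.6 CPM, and the heme-binding nuclear receptor Nr1d2, at 36.3 and 20.5 CPM. The iron regulatory protein genes Aco1 and Ireb2 had log2 ratios of 0.16 (0.06 to 0.26) and −0.03 (−0.08 to 0.02). The Hmox1 repressor Bach1 was at 1.39-fold (1.30 to 1.48) and its activator Nfe2l2 at 1.01-fold (0.933 to 1.09). Gata1, Klf1, Tal1 and Nfe2 are also in the red cell precursor list, so 4 of the 5 higher regulators are not a separate observation.

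Other targets of NFE2L2, the oxidative stress factor that also drives Hmox1, had 4 of 14 measured genes at least 1.5-fold higher and 0 lower (median 0.44). Beside them, 10.9% of all measured genes were higher and 11.4% lower. The 4 targets were Gclm at 2.41-fold (2.26 to 2.58), Tkt at 2.00-fold, Nqo1 at 1.81-fold and Gclc at 1.72-fold. The ferritin genes Fth1 and Ftl1, which store iron, had log2 ratios of 0.43 and −0.16, and Me1 was the lowest target at −0.28.

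In the list of heme proteins outside red cells and of heme attachment, 5 of 14 measured genes were at least 1.5-fold lower and 0 higher (median −0.43). Over all measured genes these shares were 11.4% and 10.9%. Mb, the oxygen-storing myoglobin of muscle, had 11366 and 2100 reads, 4.63-fold lower (4.42 to 4.85), and cytochrome c (Cycs) was 1.75-fold lower (1.68 to 1.82). Cox10 and Cox15, which make heme A for cytochrome oxidase, had log2 ratios of −0.09 and −0.07. Of the 14 genes, 3 had log2 ratios above 0: Cyb5a at 0.55, the reductase gene Por at 0.34 and Cat at 0.14. All 15 respiratory chain and citrate synthase genes had log2 ratios below 0, from −0.58 to −0.25 (median −0.47), and 0 of them reached 1.5-fold. Mb, Cycs, the respiratory chain genes and Alas1 were thus lower in H222P, where Alas2 and the reported enzymes from Alad onward were higher. Cardiomyocyte markers were lower there as well (median −0.92), and their part in this was not tested.

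Genes with a ratio like that of Alas2 were sought among 11156 protein-coding genes whose mean level reached 5 CPM. The 5 nearest in log2 ratio over the 2 libraries were Galnt16, Jade3, Bop1, Sephs2 and Trim62, with differences of at most 0.0023 from its 0.56. With 2 libraries the likeness rests on a single ratio, and 432 of these genes lay within 0.1 of Alas2.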

How the data were processed

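Counts of reads per gene were used as the authors deposited them, for 1 wild-type and 1 Lmna H222P/H222P library. They are whole numbers, not normalized. STAR, HTSeq, DESeq and build mm10 are named, without versions or roles, per the submitters' processing notes; the annotation release was not stated. The reverse-strand counts were used; they exceeded the forward-strand counts 19.3 and 20.5 times. Entries that name no gene were dropped before summing; genes took 82.8% and 82.0% of reads, and reads mapped to several places were 5.37% and 6.09%.

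Groups came from the genotype label. Libraries were scaled by TMM (factors 0.948 and 1.05) in edgeR 4.0.16 and R 4.3.3. Log2 ratios used a prior count of 0.5, with exact Clopper-Pearson intervals of the share of reads (scipy 1.17.1, Python 3.11.15). Ratios between 2 genes have conditional odds-ratio intervals, and those against a list's reads have sample odds-ratio intervals. Measured genes had a mean level of 1 CPM or more; 3 reads correspond to 0.0968 and 0.113 CPM. Coordinates and exon lengths are from GENCODE M21 (GRCm38, the assembly of mm10). Copies were sought with blastn 2.17.0. The ratio and interval steps were tested on simulated data. The members and 11 companion lists were chosen with earlier results of these data known. All members were named. From companion lists, any measured gene could be named. The planned default, the most abundant, the highest and the lowest gene, was not kept for every list, so the named genes are a choice. Spic and Cd163, which lay below that level, were named after their values were seen. Other scalings tried were total counts, size factors of DESeq2 1.42.0 and TMM without globin, hepatocyte and red cell lists or on protein-coding genes, and other alternatives a prior count of 5, both strands counted, filters and gene lengths.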

Additional observations from a re-analysis of the deposited data

How the results depend on the processing

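Each member kept its direction, and the members kept their order, under all 6 alternatives of scaling, prior count and strand. The 6 members at least 1.5-fold higher stayed beyond that bound in each. Alas2 also passed it with total-count scaling, at a log2 ratio of 0.71, which made 7 higher members, and lay between 0.53 and 0.71 over all settings. Total counts moved the median of all measured genes from −0.01 to 0.15 and the split of genes at least 1.5-fold higher and lower from 10.9% and 11.4% to 15.2% and 7.74%. They put 7 of 9 member ratios outside their counting intervals, and the other settings put none outside. The Alas2 share of reads on Alas1 and Alas2 was 65.1% in wild type and 79.9% in H222P with both strands counted; the cause was not tested. Per kb its share was 84.9% and 92.4% with exon length, and 78.5% and 88.8% with the longest transcript. List medians changed sign only near 0: mitochondrial supply became 0.14 with total counts and 0.018 without a filter, macrophage markers 0.11 with total counts, and heme transport −0.013 without a filter. With no filter beyond 1 read, 24.0% of genes were at least 1.5-fold higher and 21.5% lower, and 7.11% were higher at a mean of at least 5 CPM. No paired analysis was possible because each genotype has 1 library. For the same reason no library could be left out, and variation between hearts was not measured.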
